A study of Homo sapiens with 4 samples.

Results

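The genes described here encode 38 enzymes that add or remove methyl groups on histones, other proteins or RNA. They were taken by symbol from the 26364 genes in the count tables and comprise 22 methyltransferase genes and 16 lysine demethylase genes, without the Polycomb subunits. All 38 had a symbol in the tables and all 38 were among the 13378 genes tested. Messenger RNA was counted in NCI-H460, an established human line of non-small cell lung cancer. The 4 groups had 1 library each, and all were 1 cell line. DZNep 4 Gy cells received 4 Gy of gamma radiation and then 2 uM 3-deazaneplanocin A (DZNep) for 48 h, and DZNep 0 Gy cells received the drug without radiation. DMSO 4 Gy cells received radiation and then the solvent DMSO for 48 h, and DMSO 0 Gy cells received the solvent alone.

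The methyltransferases take the methyl group from S-adenosylmethionine and release S-adenosylhomocysteine, which inhibits them when it builds up. DZNep inhibits the hydrolase that clears S-adenosylhomocysteine, so it can slow many methyltransferases at the level of the reaction, whatever their mRNA does. That hydrolase, AHCY, stood at 229 and 227 CPM in DZNep at 4 and 0 Gy, against 292 and 279 CPM in DMSO at 4 and 0 Gy, and did not pass edgeR's quasi-likelihood test (-0.33, SE 0.14, adjusted p = 0.117). Demethylases of the KDM1 type remove methyl groups by flavin-dependent oxidation, and those with a Jumonji domain do so with iron and 2-oxoglutarate. The comparisons ask whether the mRNA of writers or erasers of methyl marks differed with the drug or with radiation.

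The libraries held 112461380 to 136594350 counts, and single members held 223 to 61528 counts in a library. Keratin genes KRT8, KRT18 and KRT19 were abundant, while the epithelial markers EPCAM and CDH1 stayed under 1 CPM (counts scaled to library size) in every library, as did 3 of 3 endothelial, 3 of 5 fibroblast and 3 of 4 blood cell markers. Summed over the 5 epithelial markers, the level was 4296 and 3885 CPM in DZNep at 4 and 0 Gy, against 1764 and 1496 CPM in DMSO at 4 and 0 Gy. KRT8 and KRT18 carried that difference. KRT19 stood at 178 and 146 CPM in DZNep at 4 and 0 Gy, against 247 and 153 CPM in DMSO at 4 and 0 Gy, and EPCAM was also lower in both DZNep libraries. The part of these levels in the results on the enzymes was not tested.

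The arginine methyltransferase genes PRMT1, PRMT5 and CARM1 had the highest mean levels per transcript length, while PRMT3 averaged 6.18 and PRMT6 1.65 CPM per kilobase. PRMT1, the main writer of asymmetric dimethylarginine, stood at 192, 178, 152 and 205 CPM per kilobase in DZNep 4 Gy, DZNep 0 Gy, DMSO 4 Gy and DMSO 0 Gy. PRMT5, the main writer of symmetric dimethylarginine, followed with 183, 169.7, 135 and 169.9 in the same order of libraries. METTL14, the partner subunit of the N6-methyladenosine writer, was lowest per length at 0.349, 0.469, 0.298 and 0.393, while METTL3, the catalytic subunit of the same complex, averaged 8.06 over the 4 libraries. Among demethylases, KDM1A (LSD1), which acts on H3K4 within the CoREST complex, was highest per length at 21.3, 25.4, 24.6 and 34.5. KDM5A, an H3K4 demethylase that binds RB1, had the lowest mean, at 0.646, 0.672, 0.797 and 0.752, but KDM4B lay below it in both 0 Gy libraries and KDM1B in DMSO 4 Gy. Length is the union of annotated exons, which can exceed the length of the transcripts in these cells.

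**Figure D1:**
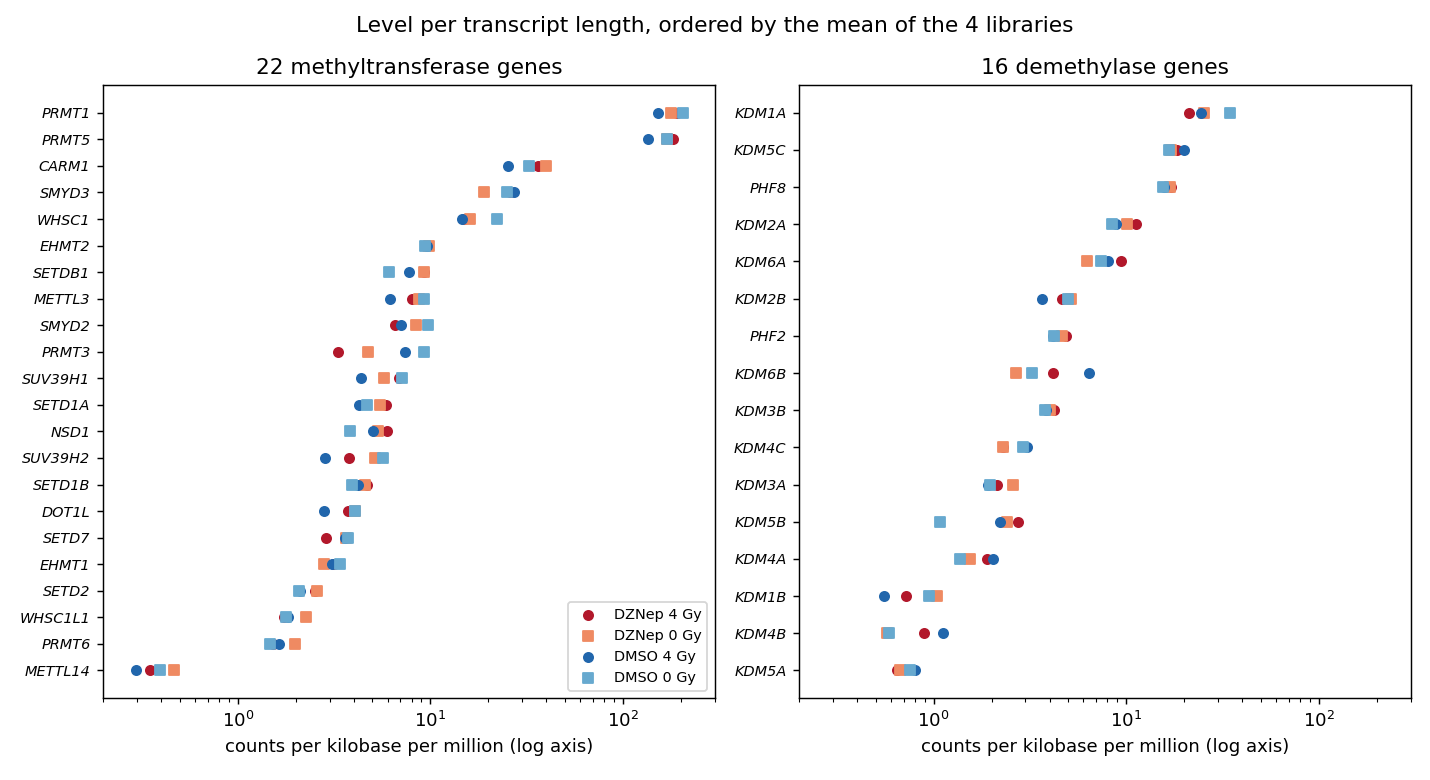
Level of each gene in CPM per kilobase of annotated exon on a log axis, with 1 point per library and genes ordered by their mean. PRMT1 and PRMT5 lie above 100 in every library, and the other 36 genes lie below 50.

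DZNep was accompanied by a fall of PRMT3, an arginine methyltransferase of the cytosol that acts on the ribosomal protein RPS2, and by a rise of KDM5B, a demethylase of H3K4. PRMT3 stood at 8.77 CPM in DZNep 4 Gy and 12.6 CPM in DZNep 0 Gy, against 19.6 CPM in DMSO 4 Gy and 24.6 CPM in DMSO 0 Gy. Both DZNep libraries lay below both DMSO libraries. Over both doses the log2 fold change was -1.06 (SE 0.18, adjusted p = 0.00133, edgeR's quasi-likelihood test), with log2 ratios of -1.16 at 4 Gy and -0.96 at 0 Gy. Without dose in the model the call was lost (adjusted p = 0.0588). In RNA from bulk cells, fewer cells of a type and less RNA per cell cannot be told apart.

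KDM5B stood at 38.4 CPM in DZNep 4 Gy and 33.7 CPM in DZNep 0 Gy, against 31.1 CPM in DMSO 4 Gy and 15.0 CPM in DMSO 0 Gy. The DMSO 0 Gy library was low and the other libraries lay close together. The log2 fold change was 0.73 (SE 0.21, adjusted p = 0.0233, edgeR's quasi-likelihood test), and without dose in the model the call was lost (adjusted p = 0.289). The ratio was 0.30 at 4 Gy, against 1.16 for the pair at 0 Gy: much of the rise rests on the low DMSO 0 Gy library. Its radiation change of 0.62 (SE 0.21, adjusted p = 0.116) did not pass, except with a filter at 10 CPM (adjusted p = 0.00873).

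Those were the only members past the threshold of an adjusted p of 0.05 under DZNep in this fit, 1 rise and 1 fall of 38 (2.63% each). Over all 13378 tested genes, 10.8% rose and 12.3% fell, so the members held a smaller share of calls in both directions. The other 36 members did not pass. At an unadjusted p under 0.05 there were 4 members higher and 3 lower, against 2239 and 2582 of all tested genes. Both DZNep libraries lay above both DMSO libraries for 12 members (31.6%, against 26.3% of all tested genes) and below them for 3 (7.89%, against 27.8%), which were PRMT3, KDM4C and KDM5A.

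**Figure D2:**
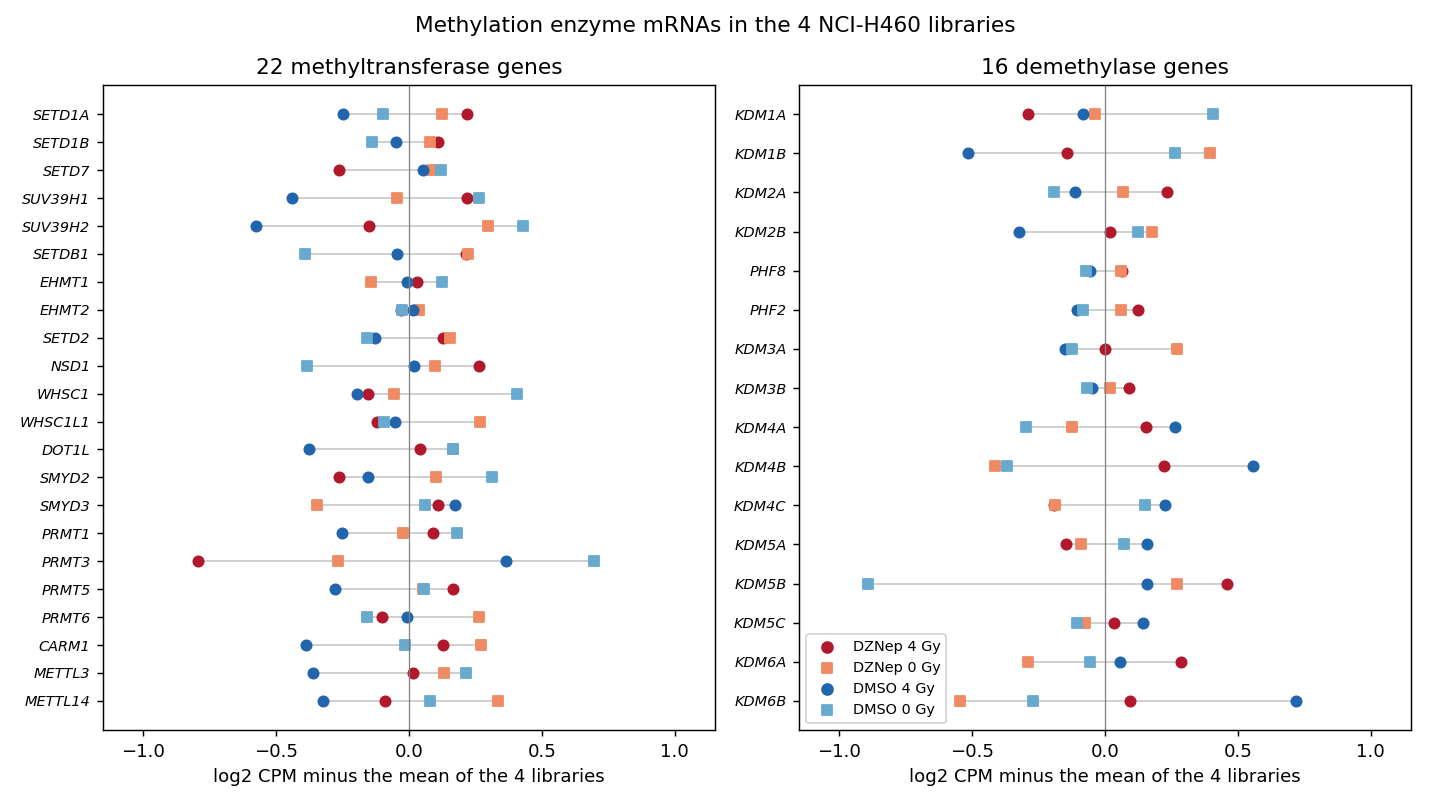
Log2 CPM of each gene minus its mean over the 4 libraries, with 1 point per library, DZNep in red and orange and DMSO in blue. PRMT3 shows both DZNep points left of both DMSO points, and KDM5B shows DMSO 0 Gy apart from the other libraries at 15.0 CPM.

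Radiation was accompanied by a rise of KDM6B (JMJD3), a demethylase of the Polycomb mark H3K27me3. KDM6B stood at 27.9 CPM in DZNep 4 Gy and 43.1 CPM in DMSO 4 Gy, against 17.9 CPM in DZNep 0 Gy and 21.7 CPM in DMSO 0 Gy. Both irradiated libraries lay above both unirradiated ones, and the DMSO 4 Gy library was highest. The log2 fold change was 0.82 (SE 0.17, adjusted p = 0.0289, edgeR's quasi-likelihood test), with ratios of 0.64 in DZNep and 0.99 in DMSO. The call was lost without a filter on low counts (adjusted p = 0.0702) and without drug in the model (adjusted p = 0.998). KDM6B did not pass the test for DZNep (-0.45, SE 0.17, adjusted p = 0.0775), except with a filter at 10 CPM (adjusted p = 0.0448).

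KDM6B was the only one of 38 members past the threshold after radiation in this fit (2.63%, against 2.17% of all tested genes that rose), a share close to the background. By edgeR's quasi-likelihood test 0 members fell, against 0.897% of all tested genes. With plain library size scaling, 351 of all tested genes rose and 266 fell after radiation, against 290 and 120 with TMM scaling. At an unadjusted p under 0.05 there were 3 members higher and 6 lower, against 1531 and 1221 of all tested genes, and DESeq2 called 1 member lower, SUV39H2. Both 4 Gy libraries lay above both 0 Gy libraries for 6 members (15.8%, against 15.8% of all tested genes) and below them for 10 (26.3%, against 17.1%).

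Windows before annotated starts of the 3 called genes are shown with their CG dinucleotides, the sites of DNA methylation in mammals. The genes were chosen by their calls and not by CG content. DNA methylation was not measured here. RefSeq windows matched 35 of the 38 members. Each sequence holds the 250 bases before an annotated start in RefSeq on GRCh38.p14, on the strand of the gene, with every CG in capitals.
PRMT3: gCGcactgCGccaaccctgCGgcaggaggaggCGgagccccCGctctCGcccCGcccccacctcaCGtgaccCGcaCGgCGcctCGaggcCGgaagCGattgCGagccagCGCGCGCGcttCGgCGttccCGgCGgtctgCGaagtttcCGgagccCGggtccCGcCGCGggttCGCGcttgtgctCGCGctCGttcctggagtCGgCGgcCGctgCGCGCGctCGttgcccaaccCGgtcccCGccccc
KDM5B: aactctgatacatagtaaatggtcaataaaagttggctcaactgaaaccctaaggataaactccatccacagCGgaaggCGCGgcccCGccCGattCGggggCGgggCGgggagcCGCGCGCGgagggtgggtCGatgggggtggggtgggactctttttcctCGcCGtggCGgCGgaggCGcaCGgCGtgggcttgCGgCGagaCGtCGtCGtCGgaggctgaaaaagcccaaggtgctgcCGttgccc
KDM6B upstream start: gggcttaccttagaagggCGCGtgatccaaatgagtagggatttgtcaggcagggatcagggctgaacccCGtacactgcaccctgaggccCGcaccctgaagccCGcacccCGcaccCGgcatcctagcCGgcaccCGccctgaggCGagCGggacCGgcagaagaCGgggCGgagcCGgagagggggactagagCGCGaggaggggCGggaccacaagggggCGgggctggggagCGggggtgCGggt
KDM6B downstream start: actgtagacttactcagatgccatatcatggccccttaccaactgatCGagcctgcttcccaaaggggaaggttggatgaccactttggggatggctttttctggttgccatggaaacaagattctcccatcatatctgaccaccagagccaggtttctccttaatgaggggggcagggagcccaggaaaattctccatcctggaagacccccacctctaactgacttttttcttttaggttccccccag

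The PRMT3 window lies at chr11:20387466-20387715 on the plus strand and holds 43 CG dinucleotides, a number reached by 1.02% of 35116 windows. Members that were not called reach it as well: WHSC1 (50), PHF2 (46), SMYD2 (46), CARM1 (45) and EHMT1 (43). The KDM5B window lies at chr1:202808422-202808671 on the minus strand and holds 27, a number reached by 17.7% of windows. For KDM6B the upstream start at chr17:7833967-7834216 has 21, a number reached by 30.2% of windows, and the downstream start at chr17:7839667-7839916 has 1, reached by 93.9%, both on the plus strand. The median was 21 over the members' 51 windows and 11 over all windows. The bases after the start were found in a transcript of the GENCODE annotation for PRMT3, KDM5B and the downstream KDM6B start. They were not found for the upstream KDM6B start. The match could lie anywhere in a transcript, so it cannot tell which KDM6B start is better backed. The counts per gene do not tell which KDM6B start was used, and whether either window acts as a promoter in these cells was not tested.

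**Figure D3:**
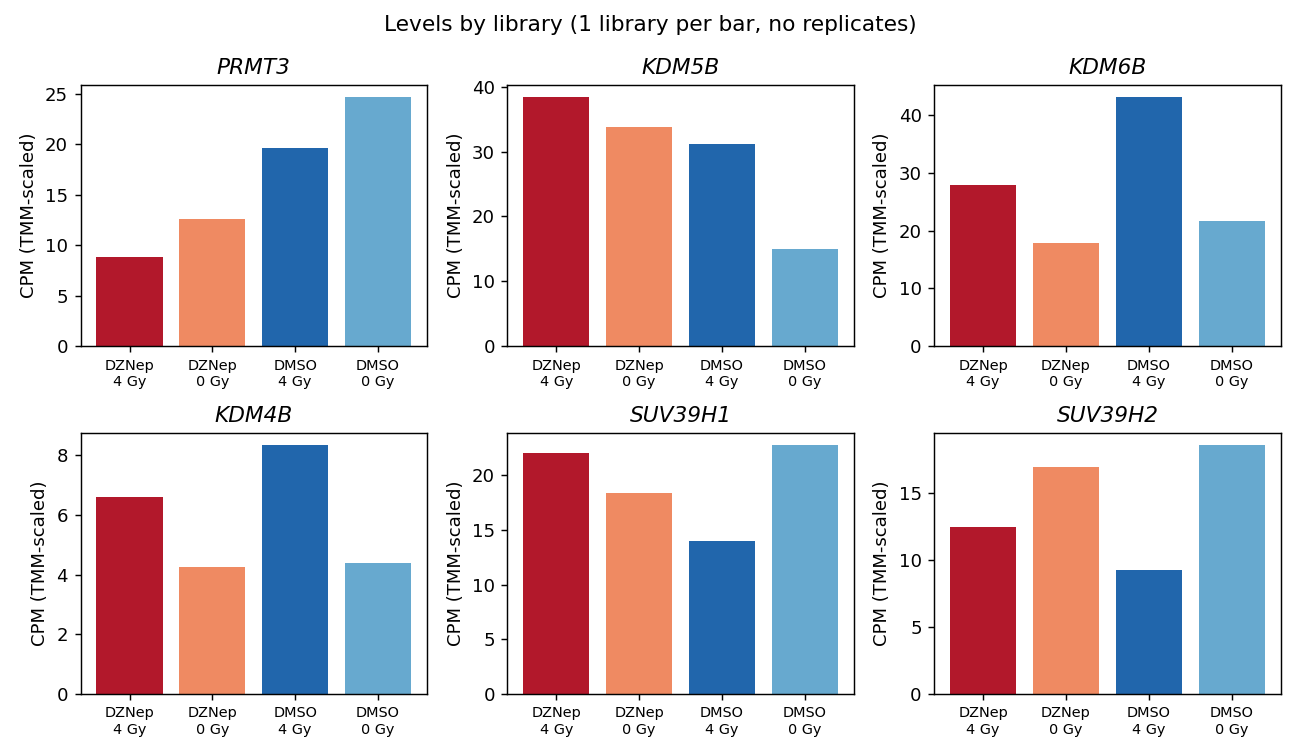
Level in TMM-scaled CPM of 6 genes, with 1 bar per library and no replicates. PRMT3 is lower in both DZNep libraries, KDM6B and KDM4B are higher in both 4 Gy libraries, KDM5B is low in DMSO 0 Gy alone, and SUV39H1 and SUV39H2 are lowest in DMSO 4 Gy.

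Of the 3 writers of H3K4 methylation, 0 passed either test by edgeR. SETD1A and SETD1B, the catalytic subunits of the SET1 complexes, had both DZNep libraries above both DMSO libraries, but did not pass the test (log2 fold change 0.34, SE 0.17, adjusted p = 0.156 for SETD1A, and 0.19, SE 0.16, adjusted p = 0.426 for SETD1B). SETD1A stood at 37.9 and 35.5 CPM in DZNep at 4 and 0 Gy, against 27.4 and 30.4 CPM in DMSO at 4 and 0 Gy. SETD7, which monomethylates H3K4 and several non-histone proteins, stood at 40.1 and 51.1 CPM in DZNep at 4 and 0 Gy, against 49.9 and 52.3 CPM in DMSO at 4 and 0 Gy. After radiation the log2 fold changes of these 3 genes lay between -0.21 and 0.061, with none past the threshold (lowest adjusted p = 0.505).

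The H3K9 writers of heterochromatin, SUV39H1 and SUV39H2, were lowest in the irradiated DMSO cells. SUV39H1 stood at 22.05 and 13.98 CPM in DZNep and DMSO at 4 Gy, against 18.4 and 22.8 CPM in DZNep and DMSO at 0 Gy. Its radiation ratio was 0.26 in DZNep and -0.70 in DMSO. SUV39H2 stood at 12.4 and 9.24 CPM in DZNep and DMSO at 4 Gy, against 16.9 and 18.5 CPM in DZNep and DMSO at 0 Gy. Its ratios were -0.45 in DZNep and -1.003 in DMSO, and over both drugs its log2 fold change of -0.73 (SE 0.20, adjusted p = 0.0644) missed the threshold by edgeR's quasi-likelihood test. It passed with DESeq2 (adjusted p = 0.0491), with plain library size scaling (adjusted p = 0.0428) and with a filter at 10 CPM (adjusted p = 0.00847). On the other strand SUV39H2 overlaps DCLRE1C, which had 2017, 3529, 1778 and 3126 counts in DZNep 4 Gy, DZNep 0 Gy, DMSO 4 Gy and DMSO 0 Gy, and the use of strand in counting is not given in the sources used here.

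SETDB1, an H3K9 methyltransferase that silences retroelements, stood at 43.1 and 43.3 CPM in DZNep at 4 and 0 Gy, against 36.004 and 28.3 CPM in DMSO at 4 and 0 Gy. Its DZNep change of 0.44 (SE 0.17, adjusted p = 0.0784) did not pass, although the libraries of each drug did not overlap, and it passed with the 10 CPM filter (adjusted p = 0.0392). SETDB1 overlaps CERS2 on the other strand, so its count is uncertain. CERS2 had 41791, 46910, 38432 and 46733 counts in DZNep 4 Gy, DZNep 0 Gy, DMSO 4 Gy and DMSO 0 Gy. EHMT1 (GLP) and EHMT2 (G9a), which form the complex for H3K9 mono- and dimethylation, stayed between 30.6 and 41.2 CPM in all 4 libraries. Their DZNep changes were -0.12 (SE 0.17) and 0.011 (SE 0.16).

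Of the H3K36 writers, WHSC1 (NSD2) was highest in DMSO 0 Gy. It stood at 265 and 284 CPM in DZNep at 4 and 0 Gy, against 258 and 392 CPM in DMSO at 4 and 0 Gy. Its radiation ratio was -0.10 in DZNep and -0.60 in DMSO, and its radiation change of -0.35 (SE 0.16, adjusted p = 0.229) did not pass. NSD1, a dimethyltransferase of H3K36, stood at 81.2 and 72.4 CPM in DZNep at 4 and 0 Gy, against 68.5 and 51.7 CPM in DMSO at 4 and 0 Gy (DZNep change 0.36, SE 0.16, adjusted p = 0.114). WHSC1L1 (NSD3) ranged from 21.6 to 28.2 CPM, and SETD2, which writes the trimethylated state, from 17.0 to 21.2 CPM. DOT1L, the H3K79 methyltransferase, stood at 27.9 and 30.4 CPM in DZNep at 4 and 0 Gy, against 20.9 and 30.4 CPM in DMSO at 4 and 0 Gy, low in the irradiated DMSO library alone.

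SMYD2 and SMYD3 methylate lysines of histones and of signalling proteins. SMYD2 stood at 10.97 and 11.8 CPM in DZNep and DMSO at 4 Gy, against 14.1 and 16.3 CPM in DZNep and DMSO at 0 Gy (radiation change -0.42, SE 0.18, adjusted p = 0.215). SMYD3 was low in 1 library, with 60.0 and 43.8 CPM in DZNep at 4 and 0 Gy, against 62.7 and 58.0 CPM in DMSO at 4 and 0 Gy.

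Apart from PRMT3, the arginine methyltransferase genes did not pass either test. PRMT1 stood at 367 and 339 CPM in DZNep at 4 and 0 Gy, against 289 and 390.2 CPM in DMSO at 4 and 0 Gy. PRMT5 stood at 479 and 444 CPM in DZNep at 4 and 0 Gy, against 353 and 444 CPM in DMSO at 4 and 0 Gy. CARM1 (PRMT4), a coactivator that methylates histone H3, stood at 120.2 and 133 CPM in DZNep at 4 and 0 Gy, against 84.1 and 109 CPM in DMSO at 4 and 0 Gy. The irradiated DMSO library was thus lowest for each of these 3 genes. CARM1 had the largest DZNep change of them at 0.40 (SE 0.15, adjusted p = 0.0763), which passed with the 10 CPM filter (adjusted p = 0.0479). PRMT6, which methylates H3 and was the least abundant of the group, ranged from 3.86 to 5.17 CPM.

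The writers of N6-methyladenosine in mRNA were also lowest in irradiated DMSO cells. METTL3 stood at 16.2 and 12.5 CPM in DZNep and DMSO at 4 Gy, against 17.6 and 18.6 CPM in DZNep and DMSO at 0 Gy. METTL14 stood at 2.33 and 1.98 CPM in DZNep and DMSO at 4 Gy, against 3.13 and 2.62 CPM in DZNep and DMSO at 0 Gy. Their radiation changes of -0.34 (SE 0.19) and -0.41 (SE 0.29) did not pass. METTL3 overlaps TOX4 on the other strand, so its count is uncertain.

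Among the erasers, the flavin-dependent KDM1A stood at 66.7 and 76.9 CPM in DZNep and DMSO at 4 Gy, against 79.4 and 108 CPM in DZNep and DMSO at 0 Gy. Its paralog KDM1B stood at 3.30 and 2.55 CPM in DZNep and DMSO at 4 Gy, against 4.78 and 4.36 CPM in DZNep and DMSO at 0 Gy. For both genes the irradiated libraries lay below the unirradiated ones, with radiation changes of -0.37 (SE 0.16, adjusted p = 0.199) and -0.66 (SE 0.26, adjusted p = 0.183) that did not pass.

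KDM2A, which demethylates H3K36 and binds unmethylated CG sites, stood at 88.1 and 78.7 CPM in DZNep at 4 and 0 Gy, against 69.4 and 65.7 CPM in DMSO at 4 and 0 Gy. KDM2B, its relative in a Polycomb complex, ranged from 26.8 to 37.9 CPM and was lowest in DMSO 4 Gy. KDM2B overlaps RNF34 on the other strand, so its count is uncertain. PHF8 and PHF2, Jumonji proteins with a PHD finger, ranged from 104 to 114 CPM and from 23.1 to 27.0 CPM. KDM3A and KDM3B, demethylases of H3K9, ranged from 9.74 to 13.1 CPM and from 25.8 to 28.8 CPM. KDM2A, PHF8, PHF2, KDM3A and KDM3B each had both DZNep libraries above both DMSO libraries, with changes of 0.11 to 0.30 that did not pass (lowest adjusted p = 0.176).

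Of the KDM4 demethylases of H3K9 and H3K36, 0 of 3 passed either test by edgeR. KDM4B stood at 6.602 and 8.34 CPM in DZNep and DMSO at 4 Gy, against 4.26 and 4.38 CPM in DZNep and DMSO at 0 Gy (radiation change 0.78, SE 0.23, adjusted p = 0.0811). KDM4A stood at 8.43 and 9.10 CPM in DZNep and DMSO at 4 Gy, against 6.95 and 6.17 CPM in DZNep and DMSO at 0 Gy (0.42, SE 0.21, adjusted p = 0.278). The irradiated libraries lay above the unirradiated ones for both genes without passing the test. KDM4C instead stood at 16.66 and 16.69 CPM in DZNep at 4 and 0 Gy, against 22.2 and 21.1 CPM in DMSO at 4 and 0 Gy (DZNep change -0.38, SE 0.17, adjusted p = 0.134).

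Beside KDM5B, the H3K4 demethylase gene KDM5A ranged from 6.95 to 8.58 CPM and KDM5C from 115 to 136 CPM. Their DZNep changes were -0.23 (SE 0.20) and -0.041 (SE 0.15). KDM6A (UTX), the second H3K27 demethylase, stood at 55.7 and 47.5 CPM in DZNep and DMSO at 4 Gy, against 37.3 and 43.9 CPM in DZNep and DMSO at 0 Gy. Its radiation change of 0.35 (SE 0.17, adjusted p = 0.274) did not pass. Whether it differs from the change of KDM6B was not tested.

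Pair by pair, few members differed by at least 1.5-fold. With DZNep at 4 Gy, SUV39H1 was higher and PRMT3 and KDM6B were lower, 1 and 2 of 38 against 12.5% and 15.3% of all tested genes. With DZNep at 0 Gy, KDM5B and SETDB1 were higher and PRMT3 was lower, 2 and 1 of 38 against 13.7% and 15.5%. After radiation in DZNep, KDM6B and KDM4B were higher and 0 members were lower, against 7.09% and 6.35%. After radiation in DMSO, KDM5B, KDM6B and KDM4B were higher and SUV39H2, KDM1B, SUV39H1 and WHSC1 were lower, 3 and 4 of 38 against 11.5% and 8.2%. Each pair is 1 library against 1, so these ratios have no replicate check.

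**Figure D4:**
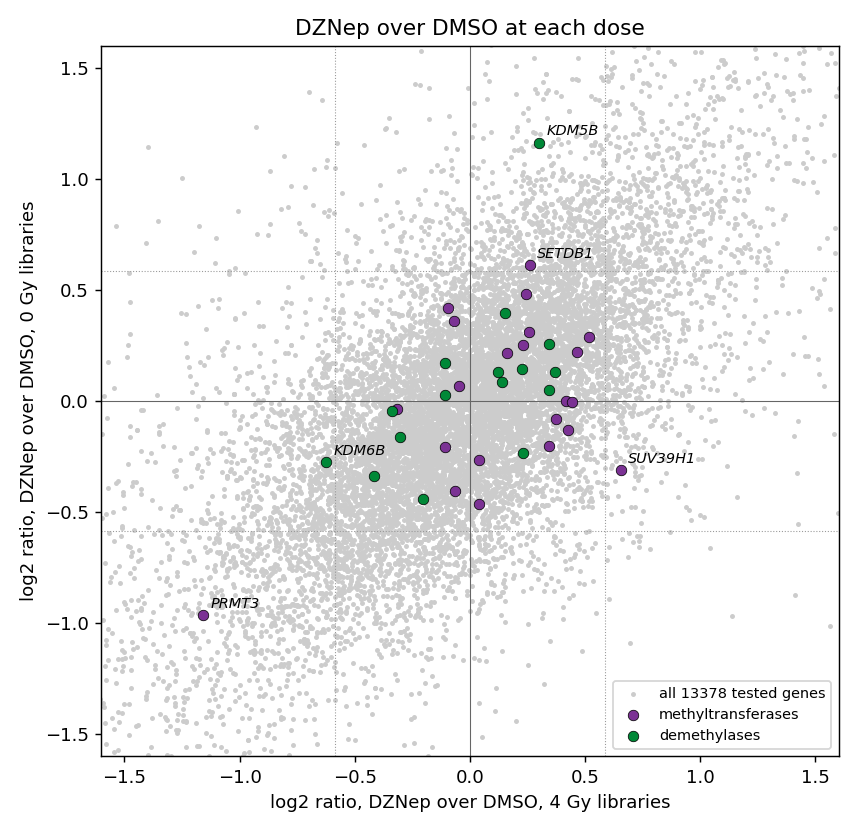
Log2 ratio of DZNep over DMSO at 4 Gy (x axis) and at 0 Gy (y axis) for all 13378 tested genes in grey and the 38 members in colour, with dotted lines at 1.5-fold and axes ending at 1.6. PRMT3 is low on both axes, at -1.16 and -0.96, while KDM5B lies at 0.30 and 1.16 and SUV39H1 at 0.66 and -0.31.

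With the drug the median change of both classes lay above 0. The median log2 fold change with DZNep was 0.16 for the 22 methyltransferases and 0.072 for the 16 demethylases, beside -0.015 for all tested genes. At 4 Gy the median ratios were 0.24 and 0.13, beside -0.0043, and at 0 Gy they were -0.0010 and 0.068, beside -0.025. Ratios were above 0 for 15 methyltransferases and 9 demethylases at 4 Gy and for 11 and 10 at 0 Gy. Over all 13378 tested genes they were above 0 for 6634 at 4 Gy and 6409 at 0 Gy. No error is attached to these medians, since the members are not replicates.

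After radiation the medians of the classes had opposite signs, without a test of the difference. The median log2 fold change was -0.17 for methyltransferases and 0.041 for demethylases, beside 0.0069 for all tested genes. In DZNep the median ratios were -0.083 and 0.066, beside 0.023, and in DMSO they were -0.24 and 0.078, beside -0.0032. Ratios were below 0 for 14 of 22 methyltransferases in DZNep and for 14 of 22 in DMSO, against 6 and 5 of 16 demethylases. Over all tested genes 47.3% were below 0 in DZNep and 50.3% in DMSO. Of the 22 methyltransferases, 1 had both 4 Gy libraries above both 0 Gy libraries and 7 had them below. Of the 16 demethylases, 5 had them above and 3 below, beside 15.8% above and 17.1% below over all tested genes.

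The irradiated DMSO library was the lowest of the 4 libraries for 10 of 22 methyltransferases (45.5%), against 24.9% of all tested genes. Those were SETD1A, SUV39H1, SUV39H2, WHSC1, DOT1L, PRMT1, PRMT5, CARM1, METTL3 and METTL14. Of these, only WHSC1, PRMT1 and METTL14 have no exon overlap with a gene on the other strand, so the other counts are uncertain. The part of the overlapping genes in this pattern was not tested. For 4 of 16 demethylases (25.0%) the irradiated DMSO library was lowest. DMSO 0 Gy was lowest for 6 of 16 demethylases (37.5%) and 5 of 22 methyltransferases (22.7%), against 25.9% of all tested genes. It was highest for 1 of 16 demethylases (6.25%) and 9 of 22 methyltransferases (40.9%), against 28% of all tested genes. Summed over the 22 methyltransferases, the level was 1754 and 1724 CPM in DZNep at 4 and 0 Gy, against 1473 and 1842 CPM in DMSO at 4 and 0 Gy, a sum carried mostly by PRMT5, PRMT1 and WHSC1. Summed over the 16 demethylases, it was 660 and 622 CPM in DZNep at 4 and 0 Gy, against 646 and 613 CPM in DMSO at 4 and 0 Gy.

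**Figure D5:**
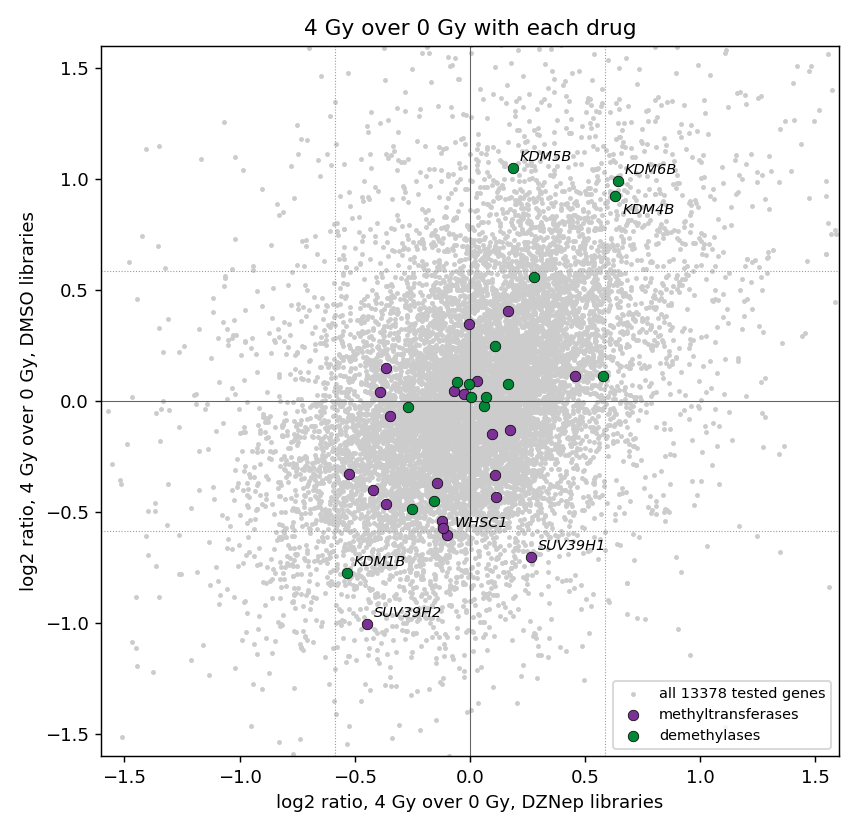
Log2 ratio of 4 Gy over 0 Gy in DZNep (x axis) and in DMSO (y axis) for all 13378 tested genes in grey and the 38 members in colour, with dotted lines at 1.5-fold and axes ending at 1.6. KDM6B and KDM4B are high on both axes, KDM5B is high in DMSO at 1.05, and SUV39H2 and KDM1B are low on both.

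The radiation ratio in DZNep minus that in DMSO was largest in size for SUV39H1 (0.97), KDM5B (-0.86), SUV39H2 (0.55) and PRMT1 (0.54). It has no error estimate, and its median was 0.16 over methyltransferases and -0.046 over demethylases, beside 0.0038 over all tested genes. Across the 38 members, the drug ratios at 4 and 0 Gy, which share no library, correlated at Pearson's r = 0.49 and Spearman's rho = 0.34, beside 0.73 and 0.67 across all tested genes. The radiation ratios in DZNep and DMSO, which also share no library, correlated at r = 0.62 and rho = 0.57, beside 0.41 and 0.42. By class, the radiation ratios correlated at r = 0.81 and rho = 0.88 over demethylases, but at 0.26 and 0.25 over methyltransferases. The drug ratios correlated at r = 0.58 and rho = 0.64 over demethylases, and at 0.47 and 0.15 over methyltransferases. Genes are not independent replicates, and these values only describe the 4 libraries.

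Of 56 related genes in 5 further lists, 55 were tested. With DZNep 4 of the 55 rose and 6 fell, beside 10.8% and 12.3% of all tested genes, so the lists together held no larger share of calls than the background. Of 6 genes in the list of other arginine methyltransferases and their partners, 4 fell and 0 rose. They were PRMT2 (-0.89, SE 0.17, adjusted p = 0.00271), NDUFAF7 (-0.96, SE 0.20, adjusted p = 0.00506), which methylates a complex I subunit, PRMT9 (-1.22, SE 0.36, adjusted p = 0.0286), and the PRMT5 partner gene CLNS1A (-0.55, SE 0.17, adjusted p = 0.0311). All 4 belong to the list, and PRMT9 and CLNS1A are named after their values were seen, beyond the limit of 2 names a list. PRMT2 stood at 19.5 and 16.3 CPM in DZNep at 4 and 0 Gy, against 33.8 and 32.3 CPM in DMSO at 4 and 0 Gy. PRMT9 lay near the 1 CPM filter, at 0.677 and 1.09 CPM in DZNep at 4 and 0 Gy, against 2.27 and 1.80 CPM in DMSO. Its drug ratios were -1.72 at 4 Gy and -0.72 at 0 Gy. PRMT7 and WDR77, the other members of that list, did not pass.

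Of 13 other lysine methyltransferase genes, ASH1L, which methylates H3K36, fell by 0.99 (SE 0.16, adjusted p = 0.000925), as did SETMAR (-0.83, SE 0.21, adjusted p = 0.0133), and 0 rose. ASH1L stood at 30.5 and 28.9 CPM in DZNep at 4 and 0 Gy, against 61.0 and 57.2 CPM in DMSO at 4 and 0 Gy, with no overlap between the drugs. Of 13 N6-methyladenosine partners, erasers and readers, RBM15, an adaptor of the METTL3 complex, rose (1.08, SE 0.19, adjusted p = 0.00158), as did the methyltransferase gene METTL16 (0.59, SE 0.18, adjusted p = 0.0350), and 0 fell. RBM15 stood at 19.0 and 19.9 CPM in DZNep at 4 and 0 Gy, against 10.1 and 8.34 CPM in DMSO at 4 and 0 Gy. Of 12 COMPASS subunits and KMT2 enzymes, MEN1 rose (0.46, SE 0.15, adjusted p = 0.0366) and 0 fell. Of 11 tested Jumonji proteins and LSD1 partners, RCOR3 rose with DZNep (0.64, SE 0.16, adjusted p = 0.0126) and 0 fell.

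After radiation, 1 of the 55 related genes rose and 1 fell, beside 2.17% and 0.897% of all tested genes. HR, a Jumonji protein and corepressor, stood at 102.1 and 88.5 CPM in DZNep and DMSO at 4 Gy, against 52.5 and 49.1 CPM in DZNep and DMSO at 0 Gy (0.90, SE 0.15, adjusted p = 0.0102). JMJD6, a Jumonji hydroxylase, stood at 15.6 and 13.0 CPM in DZNep and DMSO at 4 Gy, against 26.6 and 23.4 CPM in DZNep and DMSO at 0 Gy (-0.80, SE 0.17, adjusted p = 0.0291). The 4 Gy and 0 Gy libraries did not overlap for either gene. Single related genes were not followed through the alternative fits. A model without drug called 0 of all tested genes higher and 0 lower after radiation, so HR and JMJD6 did not pass in it.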

How the data were processed

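Raw counts per gene symbol were deposited by the authors, 1 table per library, with no normalization. TopHat, edgeR and the hg19 build are named, without versions, per the submitters' processing notes. The labels' protocols name Trizol extraction and a Lexogen SENSE kit for mRNA. The strand use, annotation and counting program were not given in the sources used here. Of 26364 symbols, 4250 had no count.

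Counts were scaled by TMM in edgeR 4.0.16 (R 4.3.3), and the 13378 genes that reached 1 CPM in 2 or more libraries entered the tests. The effect of DZNep and of radiation came from an additive model of drug and dose over all 4 libraries, using the quasi-likelihood test of edgeR, with p-values adjusted by Benjamini-Hochberg over all tested genes. With 1 library per group, that model has 1 residual degree of freedom (prior 11.5), any departure from additivity counts as spread, and the p-values measure only the spread between these libraries, which the labels do not tie to separate cultures. The standard error (SE) is the log2 fold change over the square root of F. Ratios of 2 libraries used a prior count of 2 and have no test. On data simulated for the DZNep effect over 13378 genes, 68% of 100 genes changed 2-fold and 100% of 100 changed 4-fold were recovered, with 8 false calls among 176. The changed genes were drawn only from those with a mean of 10 CPM or more, so recovery of members at lower levels was not measured. The simulation held no radiation effect and gave all genes the same spread beyond counting error.

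The members and lists were chosen with earlier results of these data known. Per-library values are given for called members, for the 4 largest ratios of each pair, the 4 largest differences between pairs and the highest and lowest genes per length, and further members are given by value or range. Exon lengths came from GENCODE 29 by symbol (38 of 38 matched), without coordinates. Alternatives were DESeq2 1.42.0, scaling by RLE or by library size alone, a filter at 10 CPM or none, models without the other factor, single pairs, a prior count of 0.5 and a 2-fold limit. Even values made up 55.9% to 58.1% of counts from 1 to 59, so mates of 1 fragment may have been counted separately. Of the 38 members, 14 have exons that overlap a gene on the other strand in that annotation, so their counts are uncertain. The methyltransferase genes among them are SETD1A, SUV39H1, SUV39H2, SETDB1, EHMT1, EHMT2, WHSC1L1, DOT1L, PRMT5, CARM1 and METTL3. The demethylase genes are KDM2B, KDM4A and KDM5A. PRMT3, KDM5B and KDM6B have none. The level of 1 marker gene is not reported here.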

Additional observations from a re-analysis of the deposited data

Results flagged for a closer look

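SUV39H1 was higher in DZNep than in DMSO at 4 Gy (log2 ratio 0.66, counting interval 0.57 to 0.75) and lower at 0 Gy (-0.31, interval -0.39 to -0.23). Equally, its radiation ratio was 0.26 in DZNep and -0.70 in DMSO. It was the only member with ratios of opposite sign, both intervals clear of 0 and at least 1 ratio of 1.5-fold. The intervals are exact binomial 95% intervals that cover counting error only, and the difference was not tested, since each ratio sets 1 library against 1. If mates of 1 fragment were counted separately, the intervals are too narrow even for counting error. SUV39H1 also overlaps a gene on the other strand, so its count is uncertain.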

How the results depend on the processing

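No paired analysis was possible because each group is 1 library, with no replicate numbers to pair; the additive model itself compares the drugs within dose, and the fits without the other factor drop that. The fall of PRMT3 and the rise of KDM5B with DZNep passed the threshold in 5 of 6 other fits, at -1.08 to -1.05 (adjusted p 1.82e-06 to 0.0588) and 0.64 to 0.74 (adjusted p 0.00039 to 0.289). KDM6B passed after radiation in 4 of 6, at 0.78 to 0.84 (adjusted p 0.000245 to 0.998). A model without the other factor called 0 members up and 0 down with DZNep and 0 up after radiation. With a 10 CPM filter there were 3 rises and 2 falls with DZNep, and 2 rises and 1 fall after radiation. Without a filter 0 members rose after radiation. Plain library size scaling and DESeq2 each gave 1 fall after radiation. At a limit of 2-fold, the members higher and lower were 0 and 1 with DZNep at 4 Gy, 1 and 0 with DZNep at 0 Gy, 0 higher after radiation in DZNep, and 1 and 1 after radiation in DMSO. The demethylase median with DZNep was 0.13 with the 10 CPM filter and 0.13 at 4 Gy alone. After radiation it was 0.054 with RLE and with DESeq2, 0.0086 with plain library size, 0.066 in DZNep alone and 0.078 in DMSO alone. The methyltransferase median with DZNep was 0.24 at 4 Gy alone and -0.0010 at 0 Gy alone, beside 0.16 over both, and after radiation -0.083 in DZNep alone and -0.24 in DMSO alone, beside -0.17. The cause was not tested, except that the filters change the number of genes tested. Over all genes, the counts higher and lower were 355 and 366 with DZNep when dose was left out, and after radiation 0 and 0 when drug was left out, 134 and 65 without a filter, 590 and 441 with the 10 CPM filter, 351 and 266 with plain library size and 447 and 214 with DESeq2. All members had 223 counts or more in each library, and no group has a replicate.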
